A study of Homo sapiens with 2 samples.

Results

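The thioredoxin, peroxiredoxin and sulfiredoxin genes were examined for peaks of the transcription factor NRF1 (NFE2L1) in HCT116 cells, a human colorectal cancer line, kept for 16 h in 1 µM of the proteasome inhibitor MG132. The list of genes held 9 members, namely TXN, TXNRD1, SRXN1, PRDX1, PRDX2, PRDX3, PRDX5, PRDX6 and SESN1, among 20175 annotated protein-coding genes. A peak was assigned to a gene when its centre lay within 50 kb of any annotated transcription start site (TSS) of the gene, and 9 of the 5683 deposited peaks met this rule. The peaks listed for these genes by name in the study's own annotation, of which a shortened copy was used, added none to the 9. The data come from 1 NRF1 ChIP library, no untreated cells were analysed here, and all values describe cells under proteasome inhibition. An input library of the same cells and treatment is among the samples and was not analysed here. The files give no read counts, the depth is unknown, no value has a replicate error, and the 95% Wilson intervals given for shares cover counting error only.

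NRF1 is a CNC-type basic leucine zipper protein of the endoplasmic reticulum membrane that is released by processing and reaches the nucleus when the proteasome is inhibited. It pairs with small MAF proteins on the antioxidant response element (ARE), a sequence that its relative NRF2 recognises as well. The genes described here for the most part encode a chain of enzymes that carries electrons from NADPH to peroxides. Thioredoxin reductase (TXNRD1) reduces thioredoxin (TXN), thioredoxin reduces most peroxiredoxins, and the peroxiredoxins reduce hydrogen peroxide and become oxidised themselves. Sulfiredoxin (SRXN1) restores typical 2-cysteine peroxiredoxins whose active cysteine has been overoxidised to a sulfinic acid. SESN1, a sestrin induced by p53, belongs to a family of stress proteins first linked to peroxiredoxin recycling and best known as inhibitors of mTORC1 signalling.

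The sequences that carry the results are the ARE matches inside the peaks, taken from the hg19 genome. The consensus was searched as TGACNNNGC or TGAGNNNGC on both strands, and its longer form as TGACTCAGC or TGAGTCAGC, which contains the AP-1 core letters TGACTCA or TGAGTCA. In TXN, the stretch chr9:113019210-113019384 is shown 5′ to 3′ on the minus strand, the strand of the gene. The capitals mark the matches TGACACAGC and TGAGCCCGC, both on the opposite strand, and on the strand shown TTACTCAGC, which is outside the consensus and is described further on.
TXN promoter: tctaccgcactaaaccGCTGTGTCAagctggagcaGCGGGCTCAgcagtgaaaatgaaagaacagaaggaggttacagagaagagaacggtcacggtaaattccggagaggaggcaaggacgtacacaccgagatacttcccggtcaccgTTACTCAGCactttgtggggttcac

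The promoter peaks of PRDX1, TXNRD1 and PRDX5 are represented by single matches, each read 5′ to 3′ on the strand on which it begins with TGA. The PRDX1 match is chr1:45987673-45987713 on the plus strand, the TXNRD1 matches are chr12:104680602-104680630 on the plus strand and chr12:104680698-104680726 on the minus strand, and those of the peak upstream of PRDX5 are chr11:64084955-64084983 and chr11:64085033-64085073 on the minus strand.
PRDX1: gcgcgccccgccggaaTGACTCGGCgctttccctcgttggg
TXNRD1, nearest to the centre: ggggcggctaTGAGCAGGCagaggatgtg
TXNRD1, downstream: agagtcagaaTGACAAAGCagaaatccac
PRDX5, nearest to the centre: cacaatctgcTGAGCTCGCatgtgcgggg
PRDX5, nearer to the gene: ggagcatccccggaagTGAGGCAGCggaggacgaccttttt

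The peaks beyond 2 kb are shown for contrast, and these were chosen for printing after their values were seen. They are chr1:173423277-173423317 on the plus strand upstream of PRDX6, chr10:120891123-120891163 on the minus strand downstream of PRDX3, chr11:64099368-64099408 on the minus strand downstream of PRDX5, and chr12:104613276-104613316 on the minus strand in the first intron of TXNRD1. The first 3 carry the longer form of the ARE.
PRDX6, distal: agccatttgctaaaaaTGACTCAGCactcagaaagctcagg
PRDX3, distal: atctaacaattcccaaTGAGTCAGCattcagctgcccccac
PRDX5, distal: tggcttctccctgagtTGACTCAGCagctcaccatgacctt
TXNRD1, first intron: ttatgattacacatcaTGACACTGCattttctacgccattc

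Of the 9 genes, 7 had a peak within 50 kb of a TSS, against 32.7% of all protein-coding genes (6591 of 20175, 95% interval 32.0 to 33.3%). PRDX2 and SESN1 had none. Within 2 kb of a TSS, 5 of the 9 had a peak, namely TXN, TXNRD1, SRXN1, PRDX1 and PRDX5, against 6.02% of protein-coding genes (1215 of 20175, 95% interval 5.70 to 6.36%). The list was put together with earlier results of these data known, so that no test was made of these counts.

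**Figure D1:**
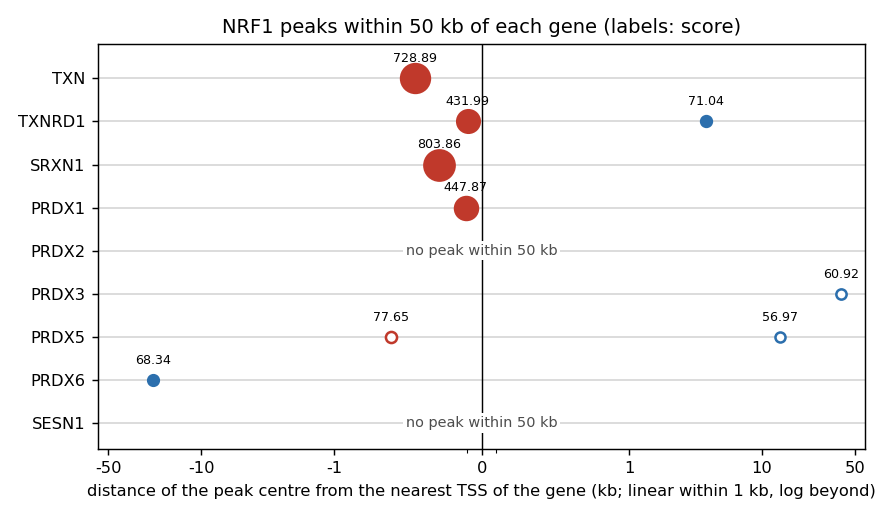
Each row is 1 gene and each point a peak, placed by the distance of its centre from the nearest TSS of the gene (kb, negative upstream, linear within 1 kb and logarithmic beyond) and sized and labelled by its score. Red points lie within 2 kb and blue points beyond it, and open points are peaks whose nearest protein-coding TSS belongs to another gene. Scores of 431.99 and above are found only just upstream of a TSS of TXN, SRXN1 and PRDX1 and of an internal TSS of TXNRD1.

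The scores fell into a high and a low set with a wide gap between them. The deposited score is that of MACS, the peak caller used by the authors, which is 10 × −log10 of the p-value for a peak. A score of 50.00 was the lowest in the list, and the median of the peaks used for sequence was 91.86. SRXN1 had 803.86 (rank 26 of 5683), TXN 728.89 (rank 37), PRDX1 447.87 (rank 153) and TXNRD1 431.99 (rank 176) at their promoters. The other 5 peaks had scores from 56.97 to 77.65 and ranks from 3529 to 4954. The high set thus lay in the top 3.10% of all peaks and the low set below the median. A promoter peak of 431.99 or more, a threshold set by these genes themselves and so no finding about them, was present at 82 protein-coding genes (0.406%).

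**Figure D2:**
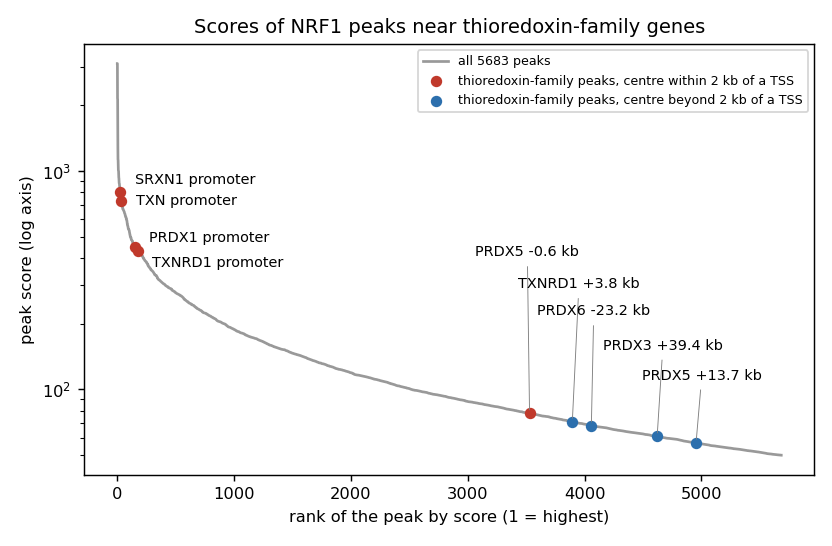
The grey line gives the score (log axis) of all 5683 peaks against rank, and the points are the 9 peaks near the genes of the list, red within 2 kb of a TSS and blue beyond it. Promoter peaks of SRXN1, TXN, PRDX1 and TXNRD1 lie on the steep part of the curve at ranks 26 to 176, and the other 5 peaks lie on its flat tail at ranks 3529 to 4954.

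SRXN1 had the highest-scoring peak of the list. The gene (ENSG00000271303) lies on the minus strand of chromosome 20 from 627259 to 633844, with 1 annotated TSS. The 762 bp interval (633752 to 634513) was centred at −288 bp from the TSS. The peak thus reached over the start site, and its GC content was 70.6%, against a median of 54.6% for the 1122 peaks within 2 kb of a protein-coding TSS.
The 3 ARE matches of this peak lay at −268, −280 and −390 bp from the TSS. TGAGTCAGC, the longer form, was 20 bp from the peak centre, and TGAGTTTGC was 8 bp from it on the other strand. The third match, TGAGTCGGC, stood 102 bp from the centre and differed from the longer form at 1 base. The longer form was found in the promoter peak of SRXN1 alone among those of the 5 genes. No further peak was found within 50 kb, and the next one on the chromosome was 208300 bp from the TSS.

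TXN encodes the cytosolic thioredoxin, the direct electron donor of the 2-cysteine peroxiredoxins of the cytosol. The gene (ENSG00000136810) lies on the minus strand of chromosome 9 from 113006090 to 113018787. Its peak, from 113018872 to 113019608 and 737 bp wide, was centred at −453 bp from the TSS and lay wholly upstream of the gene.
The strict consensus placed both TXN matches away from the middle of the peak, TGAGCCCGC at 105 bp and TGACACAGC at 124 bp from the centre. A search that allowed 1 mismatch to the longer form, added after the data were seen, found TTACTCAGC at chr9:113019226-113019234 on the minus strand, 10 bp from the centre. A site with at most 1 mismatch, the exact longer form included, was present in the central 201 bp of 7 of the 9 peaks, of 82.9% of all peaks and of 13.4% of windows of the same length taken 2 kb upstream of the peaks.

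TXNRD1, the cytosolic selenoenzyme that reduces thioredoxin, was the only gene of the list with a pair of peaks for both of which it was the nearest protein-coding gene. The gene (ENSG00000198431) spans chr12:104609557-104744085 on the plus strand and has 19 annotated TSSs. The stronger peak ran from 104680115 to 104681012, the widest of the 9 at 898 bp. It did not lie at the start of the canonical transcript but 71006 bp downstream of it, in intron 3, where further start sites are annotated on either side of the peak centre. The nearest of these was at 104680659, with the centre at −96 bp from it.
The 3 matches in this peak, TGAGTTGGC, TGAGCAGGC and TGACAAAGC, differed from the longer form at 2 or 3 bases. TGAGCAGGC was 53 bp from the centre, and TGACAAAGC stood 149 bp from it, 53 bp downstream of the TSS at 104680659. The windows printed around TGAGCAGGC and TGACAAAGC lie in exon sequence that is noncoding in annotated transcripts.
The weaker TXNRD1 peak, from 104613041 to 104613612, had a score of 71.04 (rank 3895). Its centre was 3769 bp downstream of the canonical TSS, in intron 1, and it held TGACACTGC at 30 bp from the centre and TGAGCTTGC at 100 bp. The canonical start itself had 4 ARE matches within 1 kb, none of them inside a peak.

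PRDX1, an abundant cytosolic peroxiredoxin of the typical 2-cysteine class, had 1 peak. The gene (ENSG00000117450) lies on the minus strand of chromosome 1 from 45976586 to 46008404. This interval of 635 bp (45987400 to 45988034) was centred at −107 bp from the nearest TSS and at −161 bp from the canonical one. It held 1 match, TGACTCGGC, 24 bp from the centre and at −137 bp from the canonical TSS. This match differed from the longer form at 1 base. A second match within 1 kb of the canonical TSS, TGAGGCAGC in intron 1, lay outside the peak.

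The other peroxiredoxin genes had either weak peaks that lay far away or nearer to another gene, or none. PRDX5, an atypical peroxiredoxin found in mitochondria, peroxisomes and cytosol (ENSG00000126432, chromosome 11 from 64085593 to 64089283, plus strand), had a peak of score 77.65 (rank 3529) at 64084731 to 64085227. The centre was at −614 bp from the TSS of PRDX5 but 3 bp downstream of the TSS of TRMT112, in exon 1 of that gene. TRMT112 encodes an activating partner of several methyltransferases, and the peak cannot be assigned to one gene or the other by position. Its matches were TGAGCTCGC, 10 bp from the centre, and TGAGGCAGC, 74 bp from it. A second peak of score 56.97, from 64099118 to 64099529, lay 13669 bp downstream of a PRDX5 TSS and was nearer to CCDC88B, at −8353 bp from its start. It held TGACTCAGC at 65 bp from the centre.
PRDX6, the 1-cysteine peroxiredoxin, which is reduced with glutathione rather than thioredoxin (ENSG00000117592, chromosome 1 from 173446469 to 173457954, plus strand), had no promoter peak. Its only peak, at 173423088 to 173423548, had a score of 68.34 (rank 4058) and was centred at −23151 bp from the nearest PRDX6 TSS, which was also the nearest TSS of any protein-coding gene. The peak held TGACTCAGC at 21 bp from the centre. The promoter of PRDX6 had 6 ARE matches within 1 kb of the canonical TSS, of which none was of the longer form and none lay in a peak.
PRDX3, the mitochondrial peroxiredoxin (ENSG00000165672, chromosome 10 from 120927232 to 120938324, minus strand), was reached only by a peak of score 60.92 (rank 4621) at 120890856 to 120891399. The centre was 39373 bp downstream of the nearest PRDX3 TSS. That peak lay in intron 7 of DENND10, 2140 bp downstream of a TSS of that gene, and held TGAGTCAGC at 16 bp from the centre. It was the peak nearest to the limit of 50 kb among those inside it, and the nearest one outside, 50185 bp from a PRDX3 TSS, had a score of 54.68.

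PRDX2 and SESN1 had no peak within 50 kb. For PRDX2, the other abundant cytosolic 2-cysteine peroxiredoxin (ENSG00000167815, chromosome 19 from 12907634 to 12912614, minus strand), the nearest peak was 144124 bp from a TSS and had a score of 172.27. For SESN1 (ENSG00000080546, chromosome 6 from 109305512 to 109416049, minus strand) it was 127733 bp away, with a score of 128.64. A gene without a peak is one where no peak passed the authors' threshold in this library, and weaker enrichment was not detectable in the list.
PRDX2 nevertheless had the longer form of the ARE near its start. TGAGTCAGC lay in intron 1, 441 bp downstream of the canonical TSS, and is shown as chr19:12912153-12912193 on the plus strand for comparison with the sites in peaks.
PRDX2, without a peak: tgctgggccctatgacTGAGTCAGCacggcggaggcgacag

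Matches to the consensus near a start site did not separate the genes with a peak from those without. All 9 had a TGACNNNGC or TGAGNNNGC match within 1 kb of a TSS, as did 94.5% of protein-coding genes. The longer form was within 1 kb of a TSS at SRXN1 and PRDX2 and not at the other 7, against 11.9% of protein-coding genes. Among the 721 genes with the longer form within 1 kb of the canonical TSS, 173 (24.0%, 95% interval 21.0 to 27.2%) had a peak within 2 kb. SRXN1 was one of the 173 and PRDX2 was not. SESN1 had 2 matches within 1 kb of its canonical TSS, TGACCTAGC and TGACCCCGC, and PRDX3 had 1, TGAGCGGGC at −44 bp.

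Inside the peaks, all 9 held at least 1 ARE, against 87.4% of the 5673 peaks that could be searched. The 9 peaks held 20 matches in all. In flanks of the same length beginning 2 kb from each edge, 7 of 18 held a match. No such share is given for the flanks of all peaks, so this count has no background and says nothing particular about the 9 peaks. The longer form was present in 4 of the 9 peaks, against 61.3% of all peaks. At the promoters it was present in 1 of 5 peaks, against 43.2% of the peaks within 2 kb of a protein-coding TSS. Beyond 2 kb it was present in 3 of 4, against 65.8% of the peaks there. No test was made of these shares, which rest on few peaks. The longer form stood in the SRXN1 promoter peak and in the weak distal peaks of PRDX6, PRDX3 and PRDX5. It was not found in the promoter peaks of TXN, PRDX1, TXNRD1 and PRDX5, nor in the weak TXNRD1 peak. Among all 76 promoter peaks with a score of at least 431.99, 36 (47.4%, 95% interval 36.5 to 58.4%) held it.

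**Figure D3:**
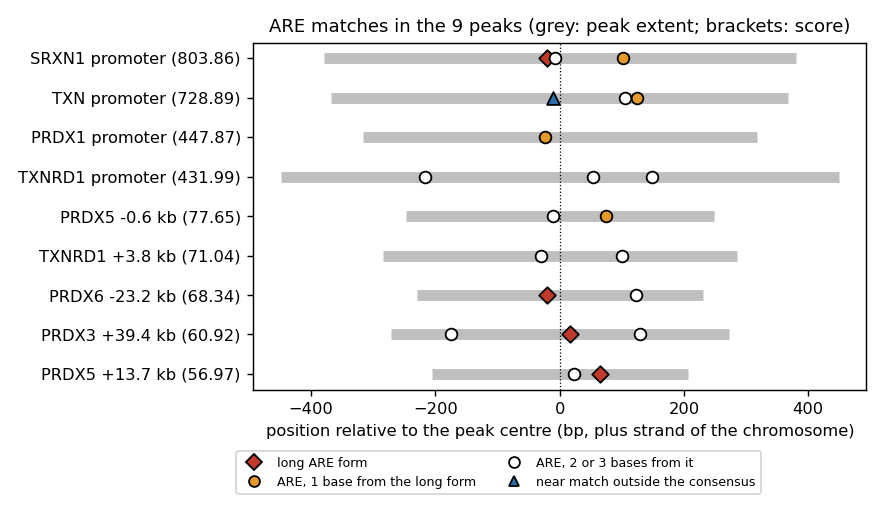
Grey bars give the extent of each of the 9 peaks around its centre (bp, plus strand of the chromosome), ordered by the score in brackets, and symbols give the ARE matches, with red diamonds for the longer form, orange circles for matches 1 base from it, white circles for matches farther from it and a blue triangle for the TXN near match outside the consensus. The longer form is found in the SRXN1 promoter and in 3 of the 4 peaks beyond 2 kb.

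The likeness of each site to the common form was then measured with a weight matrix of 13 bases learnt from the other 5664 peaks, an analysis added after the data were seen. The value is a log2-odds, higher for a closer match, and the best site in the central 201 bp of each peak was used. The median was 16.11 in the other peaks and 3.16 in windows 2 kb away. The SRXN1 promoter had 10.54, TXN 12.20 and PRDX1 12.31, so that 17.6 to 24.5% of the other peaks had a lower value. TXNRD1 had 3.90 at its promoter, and 5.21% of the other peaks had a lower value. When the whole peak was searched, the value was 12.49 at the TXNRD1 promoter, from TGACAAAGC, and 13.23 at SRXN1, from TGAGTCGGC. It stayed at 12.20 for TXN and 12.31 for PRDX1. Of the other peaks, also searched whole, 18.9 to 24.1% had a lower value than these 4 promoters, with 19.9% for TXNRD1. The matrix also weighs 2 bases on either side of the core, and the SRXN1 value of 10.54 belonged to an exact longer form, TGAGTCAGC. The highest value of the 9, 19.02, belonged to the weak PRDX6 distal peak and exceeded that of 77.7% of the other peaks. The PRDX3 distal peak followed with 17.01. The remaining weak peaks had 13.87 (PRDX5 distal), 12.03 (TXNRD1 intron 1) and 9.28 (just upstream of PRDX5), so that the weak peaks had both high and low values.
Among the 172 other peaks with a score of at least 431.99, the median log2-odds was 16.75 and the lower quartile 13.18, against 3.90 to 12.31 at these 4 promoters in the same central window. These 172 peaks were taken at any distance from a TSS. Of all 176 peaks of that score, the 4 included, only 76 lay within 2 kb of a protein-coding TSS. The longer form was in 47.4% of those 76 and in 70.5% of all 176. Matrix values were not summarised for promoter peaks alone, so the 4 promoters were not compared with other promoter peaks.

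**Figure D4:**
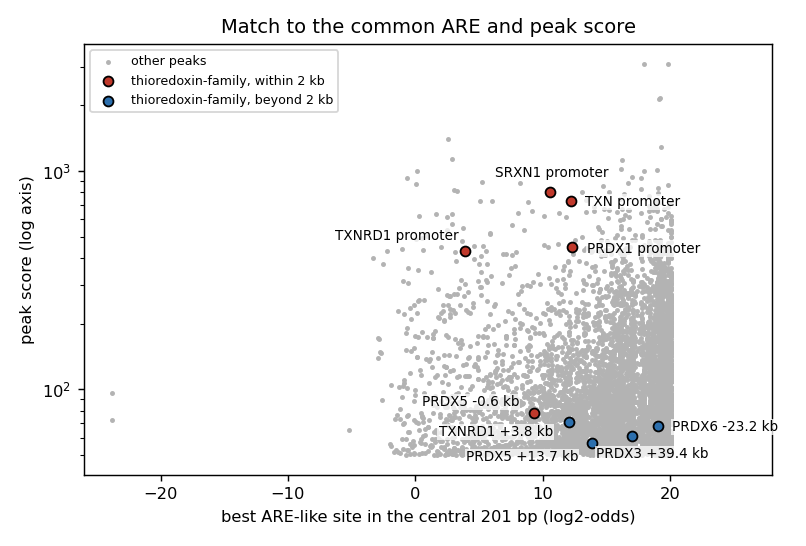
Each point is a peak, with the log2-odds of its best ARE-like site in the central 201 bp on the x axis and its score on a log y axis. The 9 peaks are in colour, red within 2 kb of a TSS and blue beyond it. The SRXN1, TXN, PRDX1 and TXNRD1 promoters lie at 3.90 to 12.31 on the x axis. Most peaks of similar score, taken at any distance from a TSS, lie to the right of these promoters.

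Base composition varied widely over the 9 peaks. GC content was 70.6% at SRXN1, 61.7% at TXN, 60.6% at PRDX1, 62.4% in the peak shared with TRMT112 and 48.3% at the internal TXNRD1 promoter. In the peaks beyond 2 kb it was 36.7% in the TXNRD1 intron, 38.6% upstream of PRDX6, 41.0% in DENND10 and 57.0% near CCDC88B, against a median of 45.3% for all peaks.

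The wider pathway was covered by 36 other genes of thioredoxin-like proteins, glutaredoxins, sestrins, methionine sulfoxide reductases and enzymes that remove peroxide or superoxide. Of these, 5 (13.9%) had a peak within 2 kb of a TSS, against 6.02% of all protein-coding genes. None reached 431.99, the threshold taken from the listed genes. Only 0.406% of all protein-coding genes reached it within 2 kb, so its absence among 36 genes says little. TXNL1, a thioredoxin-like protein associated with the proteasome, had the highest score with 288.71 (rank 461), centred 16 bp downstream of its TSS. SOD1, the cytosolic superoxide dismutase, had 155.22 at 276 bp downstream, and TXNRD3, a thioredoxin reductase enriched in testis, had 108.92 at 1255 bp downstream. MSRB1, a selenoprotein that reduces methionine sulfoxide, had 87.37 at −108 bp, and GLRX, the cytosolic glutaredoxin, 63.80 at −253 bp. The longer ARE form was in 3 of these 5 peaks, those of SOD1, TXNRD3 and MSRB1.
Close relatives of the listed genes thus fell on both sides. The mitochondrial partners TXN2 and TXNRD2 had no promoter peak, nor did PRDX4, the peroxiredoxin of the endoplasmic reticulum, or the sestrins SESN2 and SESN3. SESN2 had a peak of score 85.51 at −10702 bp from its nearest TSS.

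For reference, 2 other lists of genes were counted, each with known ARE genes among its members. Among 8 genes of glutathione and cysteine metabolism, 5 had a promoter peak, with best scores from 82.96 to 800.96. Among 9 quinone, heme and iron genes, 5 had one, with best scores from 139.83 to 730.44. In this second list HMOX1 and FTH1, which encode heme oxygenase 1 and the ferritin heavy chain, had no promoter peak. Both had peaks farther upstream, with scores of 1008.48 at −8349 bp and 655.90 at −4389 bp. The first exceeded that of SRXN1. Both were named after their values were seen. The median best score over genes with a promoter peak was 447.87 for the thioredoxin, peroxiredoxin and sulfiredoxin genes, 541.71 and 584.23 for the glutathione and the quinone, heme and iron genes, and 99.46 for all 1215 protein-coding genes with such a peak. These lists were not tested against each other.

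**Figure D5:**
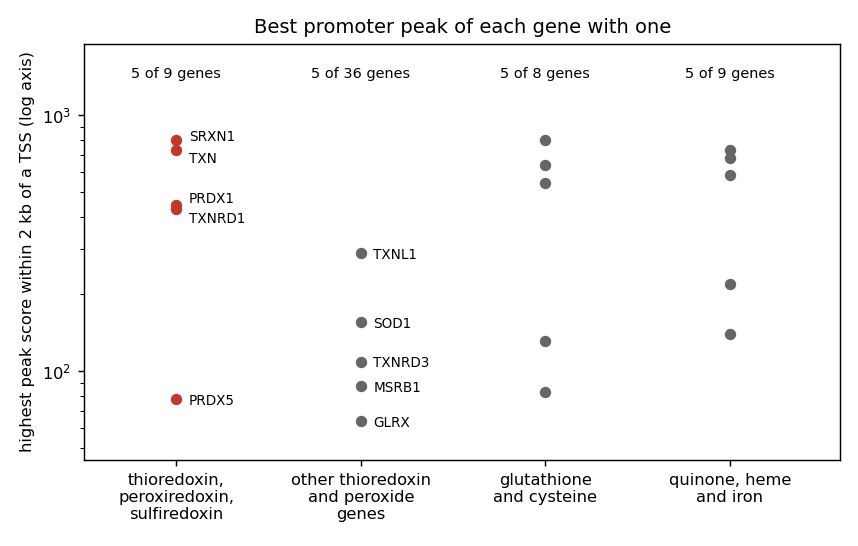
Points give the highest peak score within 2 kb of a TSS (log axis) for each gene that has such a peak, in 4 lists of genes, with the number of genes with a peak above each column. The thioredoxin, peroxiredoxin and sulfiredoxin genes (red) run from 77.65 at PRDX5 to 803.86 at SRXN1, and the other thioredoxin and peroxide genes do not exceed 288.71.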

How the data were processed

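The authors mapped single-end reads of 1 NRF1 ChIP library to hg19 with Bowtie2 2.2.6, called peaks with MACS 1.4.2 and deposited the interval and score of each peak. MACS settings, treatment of duplicate reads and whether the input library served as control are not given in the sources used here. No summits or read counts were used, so that positions refer to the middle of the interval.

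Centres were compared with all TSSs of GENCODE release 44 mapped to the same build. AREs were searched in 5673 peaks, with 10 on contigs or with undetermined bases left out. The matrix was built from the best site per peak over 3 rounds with a pseudocount of 1. The gene list, the comparison lists and the rules were chosen with earlier results of these data known. Named were the 9 genes, the gene nearest to each of their peaks and, of the 36 pathway genes, those with a promoter peak. TXN2, TXNRD2, PRDX4, SESN2 and SESN3 were named after their values were seen. No significance test was made. The sequence around the SRXN1 matches is not reported here. The search and the distances were tested on simulated data. Values of the study's expression arrays were not used. Python 3.11.15, pysam 0.24.0, pandas 2.3.3, scipy 1.17.1 and matplotlib 3.10.9 were used.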

Additional observations from a re-analysis of the deposited data

How the results depend on the processing

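The counts of genes and peaks stayed within 1.5-fold of the reported value in 34 recomputations with another setting and moved further in 8. With a score of at least 100 in place of the authors' threshold, 4 genes of the list had a peak within 50 kb, with 4 peaks, all 4 of which held an ARE. TXN, TXNRD1, SRXN1 and PRDX1 are these genes, and they also make up the 4 with a promoter peak under that setting. The same setting left 606 protein-coding genes (3.00%) with a peak within 2 kb and 3541 (17.6%) within 50 kb. It left 3 pathway genes within 2 kb. An ARE was present in 87.4% of the searched peaks of any score. A window of 10 kb in place of 50 kb left 2550 protein-coding genes (12.6%), and 5 genes of the list with 6 peaks. With the longer ARE form in place of the consensus, 4 of the 9 peaks held a match. No paired analysis was possible because 1 library was analysed. With no second library and no read counts, peaks near the lowest score of 50.00 have no check on whether they would be called again. Such are those of PRDX3, PRDX5 and PRDX6 and the peak in intron 1 of TXNRD1.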

Other observations

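Beyond 2 kb, the highest-scoring peak near a gene of the wider pathway lay at GPX4, the glutathione peroxidase that removes lipid peroxides, with a score of 377.96 (rank 257). Its centre was at −4406 bp from the nearest GPX4 TSS and at −4196 bp from that of POLR2E, a subunit of the RNA polymerases and the nearest protein-coding gene. The peak held TGACTCAGC and TGAGATTGC. The next was a peak of score 310.48 (rank 379) at −42249 bp from MSRB2, a mitochondrial methionine sulfoxide reductase, with TGACTCAGC, for which ARMC3 had the nearest TSS. Both genes were chosen after their values were seen, and both scores are above those of the 4 distal peaks of the TXNRD1, PRDX3, PRDX5 and PRDX6 genes.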
